A study of Arabidopsis thaliana with 4 samples.

Results

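A set of 7 genes whose products loosen the plant cell wall was followed in young leaves of the Arabidopsis thaliana mutant an3-4 and of wild type. They are 6 alpha-expansins, EXPA4, EXPA8, EXPA9, EXPA10, EXPA11 and EXPA15, and the xyloglucan endotransglucosylase/hydrolase gene XTH16, 7 of the 13288 genes that could be named. EXPA4, EXPA8, EXPA9, EXPA15 and XTH16 were taken by their symbol in the platform annotation, each with 1 probe set. EXPA11 (AT1G20190) and EXPA10 (AT1G26770) were taken by probe set identifier. The annotation used here lists no gene for their 2 probe sets, so the assignment rests on the identifiers and was not checked against probe sequences. The genes were chosen by family, with no limit on signal, and selected on the measured difference of an3-4 and wild type as well, which was known at the time. Their differences are therefore given as a description, without p-values.

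The study hybridised total RNA of the first leaf primordia, harvested 7 days after sowing, to Affymetrix arrays, with 2 arrays for wild type and 2 for an3-4. Both genotypes carry the ecotype label Col-0 and grew at 22 °C in continuous light. The labels name 1 mutant allele, do not say how many plants were pooled for an array, and do not say that the 2 arrays of a genotype came from separate cultures, so the spread between them may be technical. The AN3 transcript was not analysed here, because the annotation names no probe set for it, and the genotype labels were not checked against it.

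Expansins are secreted proteins that let cellulose and the glucans bound to it slip past each other in an acidic wall, without cutting them, so that turgor can stretch the wall. XTH enzymes cut xyloglucan, the glucan that coats cellulose, and either rejoin the cut end to another chain or hydrolyse it. ANGUSTIFOLIA3 (AN3) is a transcriptional coactivator that works with GROWTH-REGULATING FACTOR proteins to keep young leaf cells dividing, and an3 leaves are known for fewer but larger cells, a behaviour called compensation. Cell size itself was not measured on these arrays. The comparison asked which of these wall genes are higher and which are lower in the mutant.

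The 7 genes did not move as 1 group. EXPA11 was 6.90-fold higher in an3-4, with wild-type signals near the dim end of the arrays. EXPA8 was 1.5-fold and XTH16 1.28-fold higher. EXPA9 was lower, with an3-4 signals too dim for more than a bound (a log2 fold change of -0.62). EXPA4, EXPA10 and EXPA15 lay between 0.90 and 0.97 of wild type. For 3 genes, EXPA11, EXPA8 and XTH16, every an3-4 signal exceeded every wild-type signal, for 3 (EXPA9, EXPA4 and EXPA15) every an3-4 signal was below, and for EXPA10 the groups overlapped. Over all 22746 probe sets tested, 45.8% had groups that did not overlap, 25% with an3-4 above and 20.8% with an3-4 below, so with 2 arrays a genotype this order alone sets no gene apart. The limma fit combines each probe set's own spread with the spread usual for probe sets of like signal. In limma 4 of the 7 genes were past a Benjamini-Hochberg adjusted p of 0.05, 3 higher (EXPA11, EXPA8, XTH16) and 1 lower (EXPA9). Of all probe sets 5.16% were past it, 2.66% higher and 2.51% lower. Because this contrast was known when the genes were chosen, nothing is read from that count. The median log2 fold change was -0.04 over the 7 genes and 0.02 over all probe sets.

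**Figure D1:**
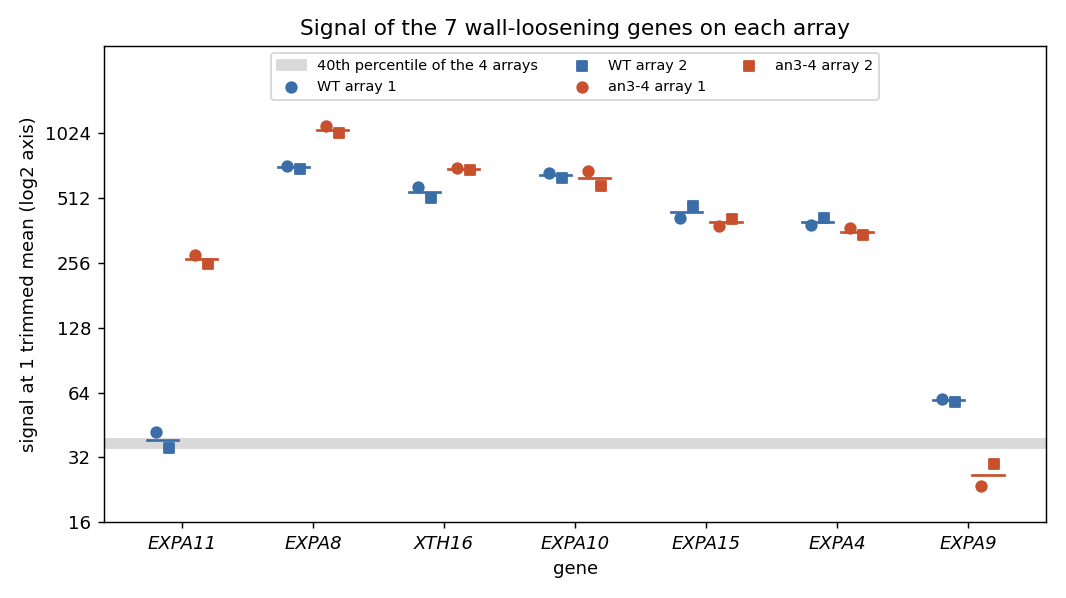
Signal of each of the 7 genes (log2 axis) on each of the 4 arrays, wild type in blue and an3-4 in orange, circles for arrays numbered 1, squares for arrays numbered 2, and a line at the mean of 2 arrays. The grey band spans the 40th percentile of the arrays, from 35.2 to 39.1. EXPA11 lies in or just above the band in wild type and far above it in an3-4, and EXPA9 lies above it in wild type and below it in an3-4.

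EXPA11 showed the largest difference of the 7. On the wild-type arrays its signal, with all arrays brought to 1 trimmed mean, was 41.9 and 35.3, and on the an3-4 arrays it was 278 and 254. Wild type was thus near the dim end of the array, just above the 40th percentile of each wild-type array (38.1 and 35.2), while an3-4 was well clear of it. The log2 fold change was 2.79 ± 0.14 (SE, n = 2 arrays a genotype), from a mean of 38.6 ± 4.70 to 266 ± 16.8 (SD). Between the arrays numbered 1 the log2 difference was 2.73, and between those numbered 2 it was 2.85. Among the 13647 probe sets left when the 40% dimmest were set aside, this was the 3rd highest increase, and among all 22746, where dim probe sets vary more, it was the 65th. Adding 32 to every signal, which damps changes of dim probe sets, lowered the log2 value to 2.08.

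EXPA8 was among the brighter of these probe sets. Its signal was 722 and 700 in wild type and 1101 and 1027 in an3-4. The lowest mutant array thus stood above the highest wild-type array by several times the distance between arrays of a genotype. The log2 fold change was 0.58 ± 0.08, with 0.61 and 0.55 between same-numbered arrays. XTH16, the only member that encodes an enzyme, had signals of 578 and 511 in wild type and 705 and 691 in an3-4. The groups were apart, by less than in EXPA8, and the log2 fold change was 0.36 ± 0.08, with 0.29 and 0.43 between same-numbered arrays. XTH16 was not past the limma threshold with the signals as deposited, median centring, robust eBayes, eBayes without trend or an offset of 32, nor with wild-type array 2 or either an3-4 array left out.

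EXPA9 had the opposite sign. Its signal was 59.5 and 58.1 in wild type and 23.5 and 29.8 in an3-4. Both mutant signals were dimmer than the 40th percentile on the same array (37.3 and 39.1), so the size of the decline has only a bound. The log2 fold change was -1.15 ± 0.26, with -1.34 and -0.96 between same-numbered arrays, and with the mutant signals raised to the percentile it was -0.62. EXPA9 was not past the limma threshold when any 1 of the 4 arrays was left out (log2 fold change -1.33 to -0.98), nor with the signals as deposited, an offset of 32 or eBayes without trend.

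EXPA10, EXPA4 and EXPA15 stayed close to wild type. EXPA10, an expansin whose dose is known to change leaf size in Arabidopsis, had signals of 667 and 636 in wild type and 685 and 584 in an3-4. The mutant arrays bracketed the wild-type arrays, the log2 fold change was -0.04 ± 0.09, and the sign differed between the arrays numbered 1 (0.04) and those numbered 2 (-0.12). EXPA4 had signals of 382 and 413 in wild type and 370 and 344 in an3-4, a log2 fold change of -0.15 ± 0.08. EXPA15 had 412 and 469 against 381 and 410, a log2 fold change of -0.15 ± 0.09. In these last 2 genes the gap between the nearest arrays of the 2 genotypes was smaller than the distance between arrays of a genotype. The 3 genes were bright on all arrays, so low signal does not limit these values. The 95% confidence intervals of their log2 fold changes ran from -0.25 to 0.16 for EXPA10 and from -0.34 to 0.04 for EXPA4. For EXPA15 the interval ran from -0.36 to 0.05. The genes were chosen with this contrast known, so the intervals are a description and no test of a difference or its absence.

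**Figure D2:**
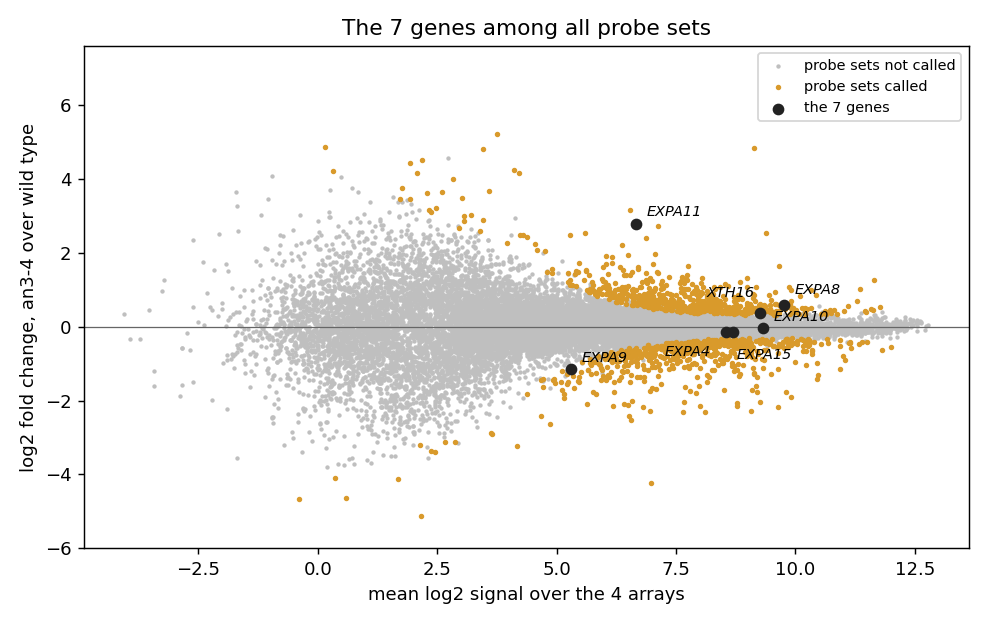
Log2 fold change of an3-4 over wild type against the mean log2 signal of the 4 arrays for all 22746 probe sets, with those called in limma in yellow and the 7 genes in black. EXPA11 (2.79) lies near the top of the points at its signal, EXPA9 (-1.15) at its lower edge where the cloud widens, and EXPA4, EXPA10 and EXPA15 lie inside it.

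The arrays are bulk measurements, so fewer cells of a type and less RNA per cell cannot be told apart. Marker genes were set beside the leaf label, but as the root marker PYK10 was bright too, they do not settle it. PSAE-1, a photosystem I subunit, had signals of 4026 to 4996, and LHCB4.2, a light-harvesting protein, of 2238 to 3475, and YAB3, an abaxial leaf regulator, of 326 to 380. Of 6 leaf markers 4 were measured, the fourth being YAB5 with signals of 82.1 to 97.2. No leaf marker was past the threshold, and LHCB4.2 had the largest difference, -0.39 ± 0.12 (limma adjusted p = 0.106). PSAE-1 went the other way with 0.20 ± 0.10, YAB5 had 0.11 ± 0.15 and YAB3 had -0.06 ± 0.09. Of 4 root markers 3 were measured. PYK10, a beta-glucosidase abundant in roots and seedling organs, was bright in both genotypes, with 3958 to 4484 in wild type and 4251 to 4490 in an3-4 and a log2 fold change of 0.05 ± 0.10. The root-hair expansins EXPA7 and EXPA18 were at or under 39.8 on all arrays. No seed marker was named on the array. Control probe sets for RNA integrity, the log2 ratio of the 3' to the 5' end, were higher on both an3-4 arrays in 3 of 6 pairs, by 0.12 to 0.23 on average, and their part in the differences above was not tested.

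The rest of the expansin family was looked at for what the rule did not pick. Of the 31 other genes of the EXPA, EXPB, EXLA and EXLB subfamilies, 15 had a probe set of their own. In limma 1 of the 15 was higher in an3-4, none was lower, and 14 were not called, beside 5.16% called over all probe sets. Their median log2 fold change was 0.00, beside 0.02 over all probe sets. At an unadjusted limma p of 0.05, 4 of the 15 passed, beside 3915 of all 22746 probe sets, so little is read from that count. Of the 15, 8 were under the 40th percentile on all 4 arrays, where only large differences could be called, and 6 were above it on all arrays.

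The call was EXLA1, a member of the expansin-like A subfamily, which shares the expansin fold but has no established wall-loosening activity. Its signal was 61.1 and 57.8 in wild type and 129 and 122 in an3-4. Each mutant array was thus about as far above its wild-type counterpart as the other, with log2 differences of 1.08 and 1.08. Expressed as log2 fold change the rise was 1.08 ± 0.14 (limma adjusted p = 0.00325), and the adjusted p lay between 2.62e-04 and 0.189 over the alternatives. The upper end came from eBayes without its intensity trend, which called no probe set at all.

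The other expansins above the 40th percentile were not called. EXPA20 had signals of 97.6 and 121 in wild type and 61.9 and 75.0 in an3-4. The groups differed by -0.67 ± 0.17 on the log2 scale (limma adjusted p = 0.0621). EXPB3, a beta-expansin, had 975 and 936 against 782 and 803, and the groups differed by -0.27 ± 0.07 on the log2 scale (limma adjusted p = 0.0747). The groups were apart in both genes. With the 40% dimmest probe sets left out, where 12.3% of probe sets were called, EXPA20 (adjusted p = 0.0166) and EXPB3 (adjusted p = 0.0428) were lower in limma. Over the alternatives the adjusted p ranged from 0.0165 to 0.357 for EXPA20 and from 0.0319 to 0.938 for EXPB3. EXLA2, of the same subfamily as EXLA1, had 0.43 ± 0.15, EXLB1 had -0.31 ± 0.15 and EXPB1 had 0.20 ± 0.22, and the last overlapped between genotypes. EXPA20, EXPB3, EXLA2, EXLB1 and EXPB1 were named after their values were seen.

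**Figure D3:**
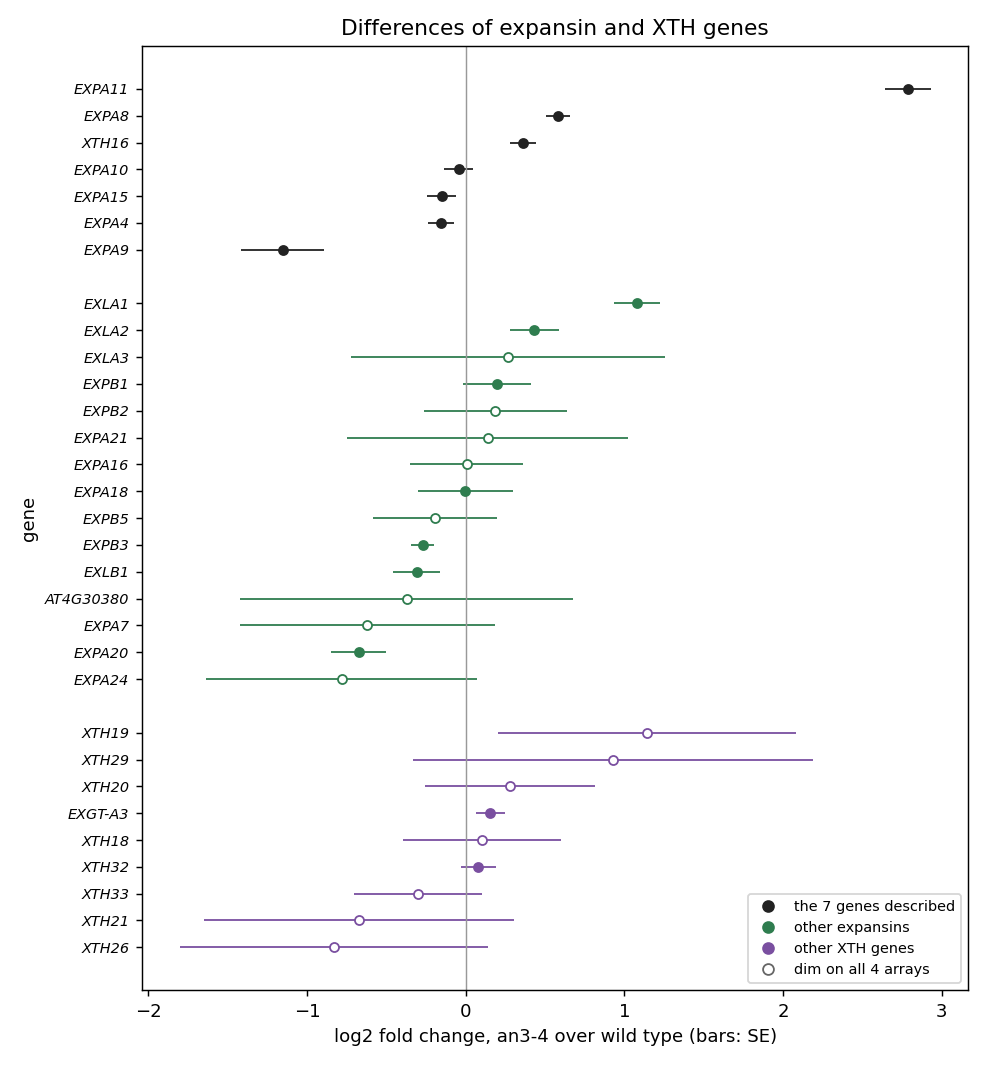
Log2 fold change of an3-4 over wild type with its SE for the 7 genes (black), the 15 other measured expansins (green) and the 9 other measured XTH genes (purple), with open symbols for genes under the 40th percentile on all 4 arrays. EXPA11 (2.79) and EXLA1 (1.08) stand highest among the filled symbols and EXPA9 (-1.15) lowest, and the open symbols carry wide errors.

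Of the 32 other XTH genes 9 had a probe set of their own, and 7 of these were under the 40th percentile on all arrays. None of the 9 was called in limma and none passed an unadjusted p of 0.05, which 3915 of all 22746 probe sets did. Their median log2 fold change was 0.10. The 2 that were bright on all arrays were EXGT-A3 and XTH32. EXGT-A3 (XTH27), which acts in the veins of rosette leaves, had 351 and 314 in wild type and 389 and 352 in an3-4, a log2 fold change of 0.16 ± 0.09 with a 95% confidence interval from -0.05 to 0.36. XTH32 had 644 and 533 against 676 and 568, a log2 fold change of 0.08 ± 0.11 with an interval from -0.17 to 0.34. The mutant arrays thus differed from the wild-type arrays by little more than arrays of a genotype did, or by less. XTH19, dim on all arrays, had the smallest p after EXGT-A3, with a log2 fold change of 1.14 ± 0.94. Its signals of 22.1 and 2.37 in wild type and 15.3 and 16.6 in an3-4 overlapped, and the sign turned to -0.47 when wild-type array 2 was left out.

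Genes that make the wall components on which expansins and XTH enzymes act were sparsely named. Of 6 genes of xyloglucan synthesis, 1 was measured. CSLC04, which builds the glucan backbone of xyloglucan, had signals of 328 and 369 in wild type and 292 and 250 in an3-4, a log2 fold change of -0.36 ± 0.10 that was not called (limma adjusted p = 0.0859). It was lower in limma with the 40% dimmest probe sets left out (adjusted p = 0.0441), within a range of 0.0332 to 0.683 over the alternatives. Proton pump genes, a family whose plasma membrane members acidify the wall, were looked for as well. None of the 11 was named, nor any of the 7 genes of primary-wall cellulose synthesis, and they were not analysed here.

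The neighbours of the 7 genes along the chromosomes were compared, in gene order only. Among the 5 nearest named genes on each side, 4 of 70 were called in limma, which is 5.71% against 4.29% of all named genes. Beside EXPA11, 1 of 10 neighbours was called, AT1G20220, which was lower with a log2 fold change of -0.54 ± 0.10. Beside EXPA9, 2 neighbours were called, AT5G02180 and AT5G02230, and both were higher, with 1.29 ± 0.19 and 0.82 ± 0.14. These few called neighbours of EXPA11 and EXPA9 had the sign opposite to theirs, but the neighbours as a whole went both ways. All 10 beside EXPA11, most of them dim, ran from -2.07 to 2.34 with a median of 0.11. Those beside EXPA9 ran from -0.46 to 1.29 with a median of 0.06. The fourth was AT2G39670 beside EXPA4, with -0.72 ± 0.09, and EXPA8, EXPA10, EXPA15 and XTH16 had no called neighbour.

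The 3 named probe sets whose signals followed EXPA11 most closely over the 4 arrays, by Euclidean distance of log2 signals around their own mean, were those of AT2G35380, AT2G12900 and AT2G33160, at distances of 0.21, 0.25 and 0.32. All were dim, with mean an3-4 signals of 13.4, 14.3 and 2.75, and none was called. The closest to EXPA9 were AT1G31950, AT2G13750 and AT3G29310, at 0.11, 0.13 and 0.14. Only AT3G29310 of these was called, at 83.6 ± 0.71 in wild type and 41.7 ± 7.15 in an3-4, a difference of -1.01 ± 0.20 on the log2 scale (limma adjusted p = 0.0221). With 4 arrays in 2 groups, such likeness rests mainly on the size of the difference. AT3G29310 was thus selected by the same difference that its adjusted p tests, and that p is a description only.

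**Figure D4:**
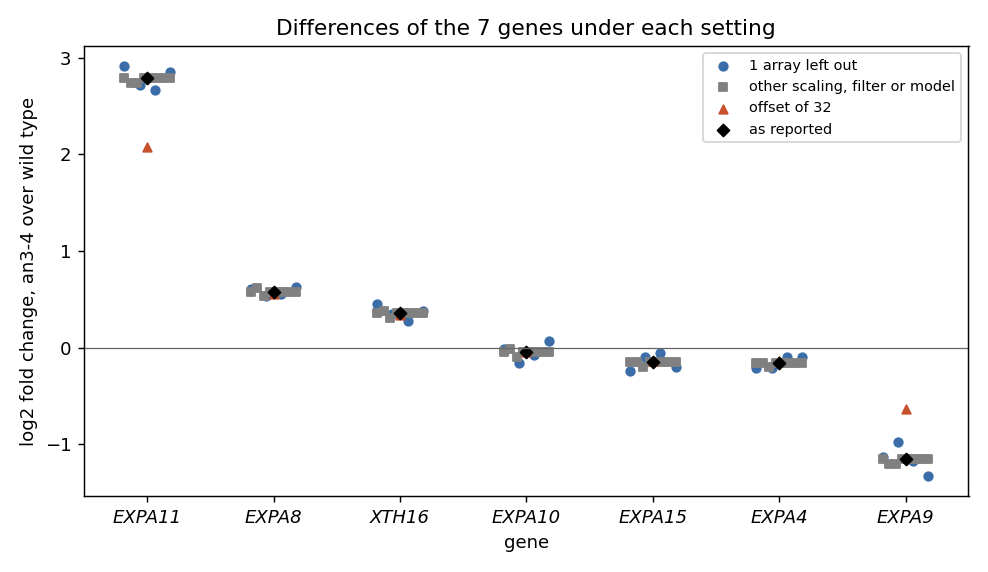
Log2 fold change of the 7 genes as reported (black), with 1 array left out (blue), under other scalings, filters and models (grey) and with an offset of 32 (orange). The offset lowers EXPA11 to 2.08 and brings EXPA9 to -0.63, and EXPA10 alone lies on both sides of 0.

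Leaving out 1 array moved the log2 fold change of EXPA11 between 2.66 and 2.91, of EXPA8 between 0.53 and 0.63 and of XTH16 between 0.27 and 0.45. EXPA4 ranged from -0.21 to -0.10 and EXPA15 from -0.25 to -0.06, while EXPA10 ranged from -0.16 to 0.07. With the signals as deposited, where 2.37% of probe sets were called, EXPA11 was the only 1 of the 7 past the limma threshold. The 7 genes were selected with this contrast known, so their calls under any setting are a description and no support for a difference.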

How the data were processed

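The authors deposited linear signal intensities for 22810 probe sets, 64 of them controls, made with MAS5 per the submitters' processing notes, in a version and with a target that are not stated there. The arrays numbered 1 had a trimmed mean (2% from each end) of 143 and those numbered 2 of 169, in both genotypes. This offset adds to the spread within a genotype and not to the fold change, so all arrays were brought to a trimmed mean of 156, a choice made with the number of calls under both scales known.

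Log2 signals without offset or filter were fitted in limma 3.58.1 under R 4.3.3 (eBayes with trend, genotype as only term, 2 residual and 6.96 prior degrees of freedom), with Benjamini-Hochberg adjustment over 22746 probe sets and calls at an adjusted p under 0.05. With 2 arrays a genotype the smallest p of an exact permutation test is 0.333. The number of arrays limits precision.

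Names came from the platform annotation, updated through gene identifiers to RefSeq (TAIR10.1). Of 13513 probe sets with 1 gene 13436 matched, 503 had several genes and 8730 none. A gene was represented by its brightest probe set. Members and lists were chosen with earlier results of these data known. The genes to be named were the 7 members, per list the called genes or else the 2 with the smallest p, and the 3 closest profiles. A signal under the 40th percentile of its array was called dim. The planned search of promoters and protein sequences was not analysed here, since no sequence table was at hand. The scripts were tested on simulated data.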

Additional observations from a re-analysis of the deposited data

How the results depend on the processing

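No alternative turned the direction of EXPA11, EXPA8, XTH16 or EXPA9, but most of them could not have done so. The groups of these genes did not overlap, so leaving out 1 array could not change the sign. Other models and the deposited scale leave the fold change as it is. The unchanged direction is therefore a description and no support for a difference. The counts of called probe sets, 604 higher and 570 lower, were 264 and 276 with the signals as deposited, 295 and 300 with an offset of 32, and 967 and 859 once the replicate block entered the model, whichever the scale. Fits on 3 of the arrays called 286 to 514 as higher and 333 to 407 as lower. eBayes without the trend called 0 higher and 0 lower, with 2810 probe sets at an unadjusted p under 0.05, and so called 0 of the 7 genes and 0 other expansins. Of the 7 genes, 1 higher and 0 lower were called as deposited, 0 lower with the offset, and 2 to 3 higher and 0 lower with 1 array left out. The offset moved EXPA11 to 2.08 and EXPA9 to -0.63. Lower calls among the other expansins, 0 as reported, were 1 with median centring (EXPA20) and 2 without the dimmest probe sets or with the replicate block, and CSLC04 was lower in those last settings too. XTH19 ranged from -0.47 without wild-type array 2 to 2.75 without wild-type array 1. Little sign of pairing by replicate number was seen beyond the shared trimmed mean. The deviations of same-numbered arrays from their genotype means correlated at -0.0098 across all probe sets and at 0.04 across the brightest 60%. The labels do not say whether same-numbered arrays shared a culture, and these values cannot settle it. Where 1 array is left out, its genotype has a single array that takes its spread from the other. Signal over background limits EXPA9 in an3-4 and most other expansin and XTH genes.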

Other observations

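Endoglucanases of the GH9 family, which hydrolyse glucans of the wall, were added after the data were examined. Of 25 genes 15 had a probe set of their own, and none was called in limma. At an unadjusted limma p under 0.05 were 3 of the 15, beside 3915 of all 22746 probe sets, so the family did not stand out. The median log2 fold change was -0.03. GH9B7 had signals of 857 and 796 in wild type and 717 and 657 in an3-4, a difference of -0.27 ± 0.08 on the log2 scale (limma adjusted p = 0.109). GH9B8 had 114 and 108 against 177 and 132, a difference of 0.46 ± 0.15 on the log2 scale (limma adjusted p = 0.136). The groups were apart in both genes, in opposite directions. GH9C1, the third gene at an unadjusted p under 0.05, was dim on all 4 arrays. GH9C2 had 808 and 726 against 765 and 874, and overlapped.

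Among probe sets with several genes each, 1 for EXP26 and EXPA22 and 1 for EXPA25 and EXPA23 were left out of the counts. Their signals were at most 11.9 on every array, under the 40th percentile.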
